A study of Mus musculus with 12 samples.

Results

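The difference between compartments in the response to MG132 was measured in all 12 libraries of the series as a difference of differences. For every gene, the change from Ctrl to MG132 in somas was subtracted from the change from Ctrl to MG132 in neurites. A gene called higher had a log2 change in neurites above that in somas, and a gene called lower had a log2 change in neurites below it. The same quantity is the log2 neurites to soma ratio of the MG132 cultures minus that of the Ctrl cultures. It was fitted with a block for each treatment and replicate number. Soma and neurites libraries of the same treatment and number were taken as fractions of the same culture, which the titles do not state. Among 14185 genes tested, 135 were called at an adjusted p under 0.05, which is 0.952% of them, and 64 were higher (0.451%) and 71 lower (0.501%).

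The cells were primary hippocampal neurons of newborn mice, labelled C57BL/6 and kept for 17 or 18 days in Transwell inserts, cups with a porous membrane whose upper face retains somas while axons and dendrites grow through to the lower face. MG132 cultures received 10 μM MG132 for 7 h, and Ctrl cultures received the solvent DMSO. Each of the 4 groups (Ctrl soma, Ctrl neurites, MG132 soma, MG132 neurites) had 3 libraries of polyA RNA, and no gene had been altered in any of them. Nothing in the labels says whether replicate numbers mark separate dissections or pooled pups, so p-values cover the spread between these libraries and may include technical spread.

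Levels are given in CPM, a gene's counts per 1000000 counts of the library after TMM scaling, always in the order of replicates 1, 2 and 3. Library totals ran from 4247610 to 22166347 counts. Mitochondrial genes took 9.78% to 29.2% of the counts, with the highest shares in the replicate 1 neurites of both treatments, and 1 unnamed gene took 12.4% to 33.4%. Both fractions held RNA of neurons and of glia. The 13 neuronal markers summed to 1714 to 2624 CPM in Ctrl somas and 1950 to 4188 in Ctrl neurites, whereas the 15 astrocyte markers, dominated by the glial filament gene Gfap, summed to 5714 to 7283 CPM in Ctrl somas and 22429 to 27902 in Ctrl neurites. With MG132, the astrocyte sums were 2962 to 3888 CPM in somas and 10418 to 20904 in neurites, and the neuronal sums were 1251 to 2262 and 1366 to 3060. The 16 markers of the oligodendrocyte lineage summed to 2342 to 8293 CPM in Ctrl somas, 926 to 7430 in MG132 somas, 6601 to 24530 in Ctrl neurites and 3892 to 17480 in MG132 neurites. No marker of these 3 lists was at 0 in a whole group. The part of glial RNA in any difference below was not tested, and in these bulk samples fewer cells of a type and less RNA per cell cannot be told apart.

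MG132 blocks the proteasome, the protease complex that degrades ubiquitin-tagged proteins. Cells with a blocked proteasome are known to switch on heat shock genes through HSF1, proteasome subunit genes through NRF1, antioxidant genes through NRF2, and genes of the integrated stress response through ATF4. Neurons export many mRNAs into axons and dendrites and translate them there, so that the mRNA make-up of neurites follows transcription in the nucleus, transport and local decay.

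In somas, MG132 raised 2203 genes (15.5%) and lowered 1694 (11.9%), and in neurites it raised 2085 (14.7%) and lowered 1738 (12.3%). These response tests used 4 group means without the culture block, so a gene could pass in the difference and in neither response. Of the 64 genes called higher, 20 fell in somas and did not pass in neurites, 17 rose in both fractions, 15 rose in neurites and did not pass in somas, 6 fell in both, 5 passed in neither and 1 fell in somas and rose in neurites. Of the 71 called lower, 29 fell in neurites and did not pass in somas, 23 rose in somas and did not pass in neurites, 8 fell in both, 7 passed in neither, 2 rose in somas and fell in neurites and 2 rose in both. Whether a response passes in 1 fraction and not in the other is no test of the difference, which is the separate test given for each gene. Absolute log2 differences of the called genes had a median of 1.15 among the higher and 1.10 among the lower.

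**Figure D1:**
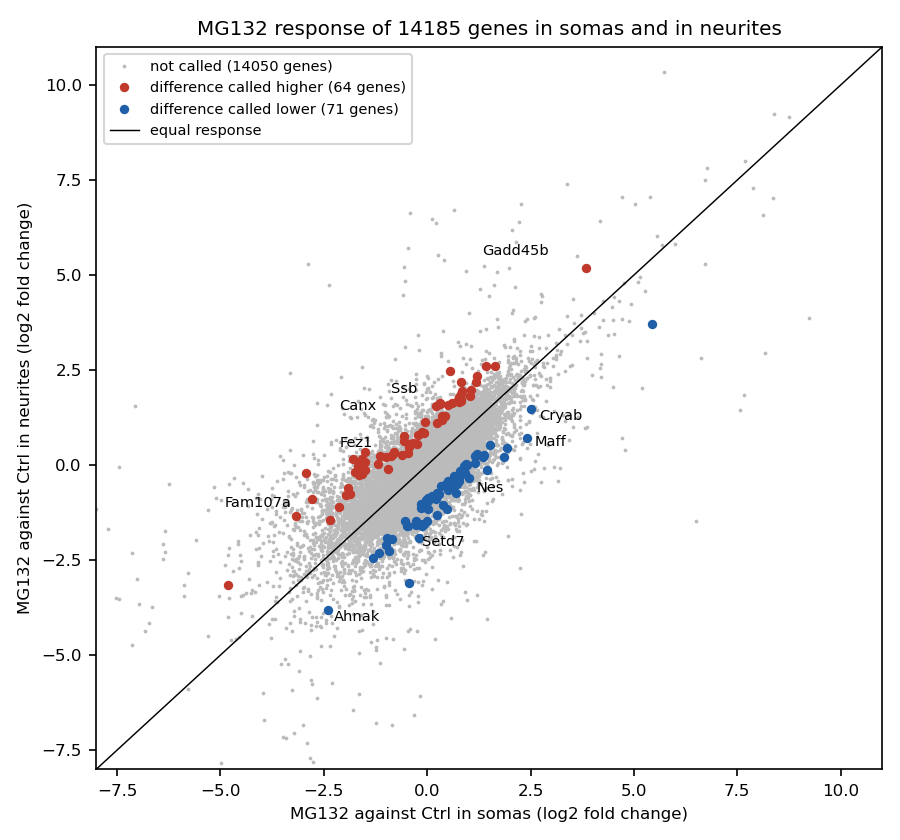
Log2 fold change of MG132 against Ctrl in somas (x axis) and in neurites (y axis) for the 14185 genes tested, with the 64 genes called higher in red, the 71 called lower in blue and the line of equal response in black. The called genes lie on both sides of the line, with Gadd45b at the top, Fam107a at the left and Ahnak at the bottom. They do not reach the largest responses, such as that of Hspa1b, which was not called. Outside the axes fall 2 genes not called.

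The starting distribution of the called genes differed. In Ctrl cultures 1955 of all genes (13.8%) had a higher level in neurites than in somas and 1354 (9.55%) a lower one, and in MG132 cultures these were 2147 (15.1%) and 1699 (12%). Of the 71 genes called lower, 60 were higher in neurites in Ctrl cultures and 11 were not called. Of the 64 called higher, 22 were higher in neurites in Ctrl cultures, 34 were not called and 8 were lower. The Ctrl ratio is itself a term of the difference, so these counts are a description. Per culture, the 3 MG132 ratios lay entirely above or entirely below the 3 Ctrl ratios for 2526 genes (17.8% of those tested; 8.63% above and 9.18% below), and for all 135 called genes. With 3 cultures against 3, an exact two-sided permutation test of a single gene cannot give a p below 0.1.

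The calls depended on the culture block and the scaling. Without it, the same contrast gave 0 calls in both directions by edgeR's quasi-likelihood test, with 474 genes higher and 526 lower at an unadjusted p under 0.05, against 771 (5.44%) and 888 (6.26%), or 11.7% in all, with the block. DESeq2 with the same blocks called 219 higher and 165 lower, and limma with the culture as a random block called 20 and 16. Scaling on total counts gave 0 calls in both directions, and leaving mitochondrial genes and the most counted gene out of the scaling gave 111 higher and 40 lower. In each of these 5 fits all 135 genes kept the direction of their difference. These genes were selected for large differences in the same counts, so the kept direction is no separate support. The median difference over all genes was -0.01, against -0.17 on total counts, where 93 of the 389 genes at an unadjusted p under 0.05 were higher, and 0.09 with mitochondrial genes and the most counted gene left out. Without replicate 1 of both treatments, whose neurites had the highest mitochondrial shares, there were 0 calls in both directions, with 441 and 491 at an unadjusted p under 0.05. Leaving out 1 culture at a time gave 24 to 146 calls higher and 7 to 94 lower, with the fewest higher without Ctrl replicate 1 and the fewest lower without MG132 replicate 1. Of the 64 called higher, 18 were called in all 6 fits that left out 1 culture, and of the 71 called lower, 5 were. Among the genes described with values, *Mfn2* was called in 0 of these 6 fits, *Cryab*, *Fth1*, *Wwtr1*, *Ctif* and *Cd33* in 1, and *Hspb8*, *Kif1c*, *Gadd45b*, *Yap1*, *Rbm39* and *Lonp1* in 2. The deposited file of MG132 neurites replicate 3 bears another date in its name than the other 3 files of that number. It was kept as labelled, and without that culture there were 146 calls higher and 63 lower.

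**Figure D2:**
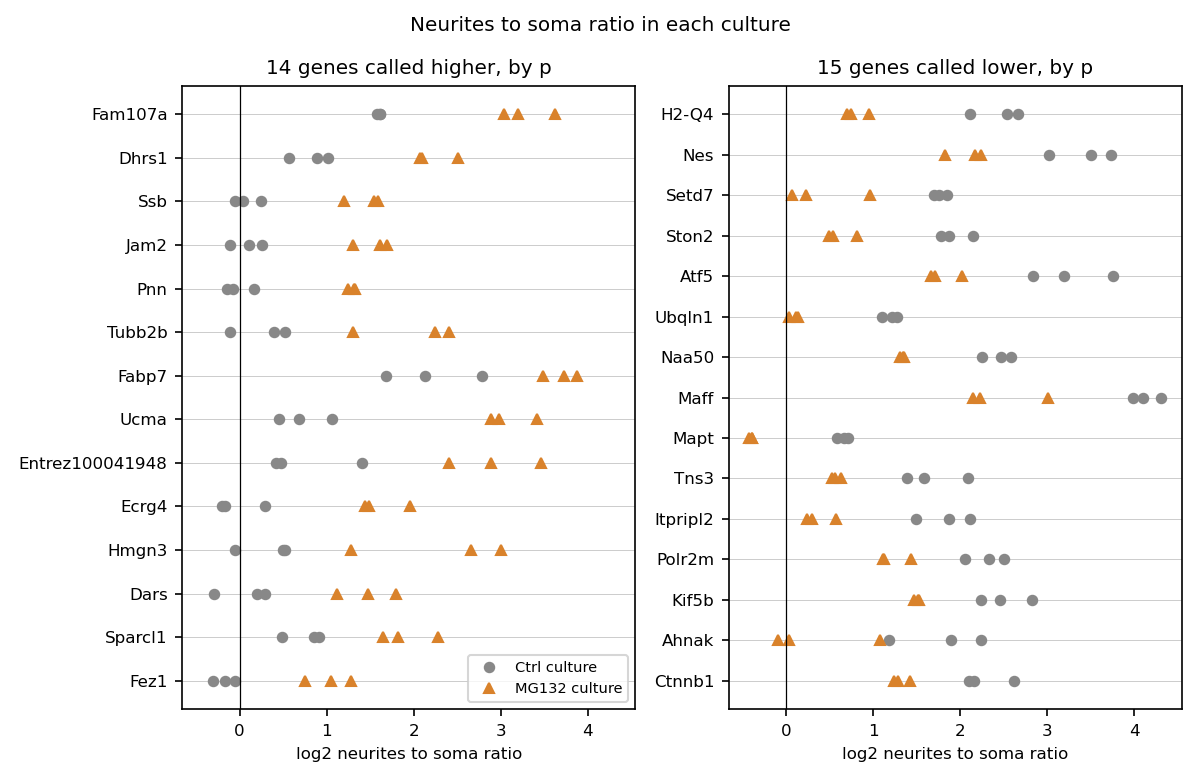
Log2 neurites to soma ratio in each of the 3 Ctrl cultures (grey circles) and the 3 MG132 cultures (orange triangles), for 14 genes of low p called higher (left) and 15 called lower (right). The 2 sets of ratios do not overlap for any of these 29 genes, and for Ahnak the nearest values are 1.08 and 1.18.

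The largest single class among the genes called higher fell in somas without a call in neurites (20 genes), and 6 more fell in both fractions. *Fam107a* (chromosome 14, 8296270 to 8317607 on GRCm38), which encodes an actin-binding stress protein, had the lowest p of all genes. Its levels were 196, 183 and 115 CPM in Ctrl somas, 20.4, 25.2 and 10.4 in MG132 somas, 600.3, 547 and 351 in Ctrl neurites and 189, 312 and 86.6 in MG132 neurites. MG132 libraries were thus below all Ctrl libraries in both fractions, and neurites were above somas in every culture. The log2 response was -3.17 ± 0.43 (SE) for somas and -1.35 ± 0.40 for neurites, and the difference was 1.69 ± 0.20 (adjusted p = 2.55e-04).

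*Dhrs1*, a short-chain dehydrogenase, measured 278, 255 and 277 CPM in Ctrl somas, 81.8, 73.8 and 103 in MG132 somas, 411, 472 and 559.6 in Ctrl neurites and 345, 419 and 440.1 in MG132 neurites. Somas of the 2 treatments did not overlap, whereas neurites did. Its difference was 1.40 ± 0.20 (adjusted p = 0.00235). *Jam2*, a junctional adhesion molecule, measured 96.7, 127 and 62.2 CPM in Ctrl somas, 29.8, 35.1 and 23.6 in MG132 somas, 89.4, 137 and 74.7 in Ctrl neurites and 91.5, 114 and 58.4 in MG132 neurites. The treatments were again apart in somas and overlapped in neurites, with a difference of 1.45 ± 0.22 (adjusted p = 0.00237). *Sparcl1*, the secreted synapse-organizing protein hevin of astrocytes, measured 722, 589 and 432 CPM in Ctrl somas, 301, 338 and 241.8 in MG132 somas, 1303, 827 and 814 in Ctrl neurites and 1468, 1061 and 853 in MG132 neurites, with a difference of 1.16 ± 0.21 (adjusted p = 0.00635).

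*Fabp7*, the brain fatty acid-binding protein of radial glia and astrocytes, measured 77.8, 169.6 and 49.3 CPM in Ctrl somas, 20.5, 59.1 and 15.99 in MG132 somas, 249.8, 744 and 339.7 in Ctrl neurites and 233, 869 and 214 in MG132 neurites. Replicate 2 was the highest of each group, and the neurites of both treatments overlapped. Its difference was 1.52 ± 0.24 (adjusted p = 0.00237), although neither response passed its own test (adjusted p = 0.0639 in somas and 0.987 in neurites). *Ecrg4*, which encodes a secreted peptide precursor, measured 23.4, 80.0 and 24.4 CPM in Ctrl somas, 8.05, 27.2 and 6.97 in MG132 somas, 20.9, 98.2 and 21.2 in Ctrl neurites and 22.1, 106 and 19.9 in MG132 neurites. Replicate 2 was again the highest of each group, by more than the treatments differed in neurites. The difference for *Ecrg4* was 1.67 ± 0.28 (adjusted p = 0.00368), and neither response passed.

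*Hmgn3*, a nucleosome-binding protein, had log2 ratios of 0.50, 0.52 and -0.06 in Ctrl cultures and 2.66, 2.999 and 1.28 in MG132 cultures, a difference of 1.95 ± 0.33 (adjusted p = 0.00377). *Ucma*, a secreted matrix protein known from cartilage, was low, between 1.07 and 34.4 CPM in single libraries, and had a difference of 2.51 ± 0.41 (adjusted p = 0.00292). The unnamed gene *Entrez100041948* had a difference of 2.10 ± 0.34 (adjusted p = 0.00292). These 3 genes fell in somas and did not pass the test in neurites. *Tubb2b*, a β-tubulin, did so too, with a difference of 1.71 ± 0.27 (adjusted p = 0.00237), but its reads can be shared with other β-tubulin genes, so its value is uncertain.

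Since astrocyte and radial glia genes stood among those called higher, the whole marker lists were counted. Of the 15 astrocyte markers tested, 13 fell in somas and 8 in neurites, against 11.9% and 12.3% of all genes, and none rose. At an unadjusted p under 0.05, 6 had a higher and 0 a lower difference, against 5.44% and 6.26% of all genes. Their median difference was 0.36 against -0.01 over all genes. The same shares over all genes hold for every list below, with 15.5% rising in somas and 14.7% in neurites. *Aqp4*, the astrocyte water channel, was the member called. It measured 429, 433 and 424 CPM in Ctrl somas, 87.4, 84.5 and 78.7 in MG132 somas, 346, 391 and 369.6 in Ctrl neurites and 141, 149 and 114 in MG132 neurites, and no group overlapped another. Log2 responses of -2.36 ± 0.16 in somas and -1.45 ± 0.15 in neurites gave a difference of 0.90 ± 0.19 (adjusted p = 0.022). *Slc4a4*, a bicarbonate cotransporter, had a difference of 0.65 ± 0.21 (unadjusted p = 0.00493, adjusted p = 0.157), and *Aldoc*, the astrocytic aldolase, of 0.68 ± 0.22 (unadjusted p = 0.00478, adjusted p = 0.156). Gfap, with the highest level of the list and named for it, had a difference of -0.13 ± 0.23 (adjusted p = 0.907).

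Among the 21 radial glia and progenitor markers tested, 10 fell in somas and 6 in neurites. At an unadjusted p under 0.05, 7 had a higher and 1 a lower difference, against 5.44% and 6.26% of all genes. The median difference was 0.47. *Fabp7* and *Nes* were called, in opposite directions. *Vim*, the intermediate filament vimentin, measured 843, 1106 and 967 CPM in Ctrl somas, 400.2, 722 and 549.8 in MG132 somas, 962, 1417 and 1435 in Ctrl neurites and 861, 1481 and 1289 in MG132 neurites, and its difference of 0.75 ± 0.19 missed the threshold (adjusted p = 0.0562). *Nes*, the progenitor filament nestin, measured 188, 359.9 and 246.4 CPM in Ctrl somas, 436, 789 and 369 in MG132 somas, 2134, 2925 and 3265 in Ctrl neurites and 2065, 2803 and 1666 in MG132 neurites. Every MG132 soma library lay above every Ctrl soma library, and neurites held several times more than somas in all cultures. It rose in somas (1.005 ± 0.31, adjusted p = 0.0267) and did not pass in neurites (-0.35 ± 0.31, adjusted p = 0.431), and its difference was -1.34 ± 0.21 (adjusted p = 0.0025). Both lists hold *Slc1a3*, and the 2 lists otherwise have no gene in common. Without the culture block 1 astrocyte marker and 2 radial glia markers had a higher difference at an unadjusted p under 0.05, and on total counts 0 and 2. Without replicate 1 of both treatments, 1 astrocyte marker and 4 radial glia markers had a higher difference at an unadjusted p under 0.05, with medians of 0.38 and 0.40. No member of the other marker lists was called, where 0.952% of all genes were. At an unadjusted p under 0.05 there were 0 higher and 1 lower of 15 for microglia (median -0.23), 0 and 1 of 16 for the oligodendrocyte lineage (median -0.07), 2 and 0 of 12 for meningeal fibroblasts (median 0.66), 1 and 0 of 7 for endothelial and mural cells (median 1.12), and 1 and 1 of 10 for ependyma and choroid plexus (median 0.24). Fibroblast and vascular markers summed to at most 470 and 69.4 CPM in any library. The 13 neuronal markers gave 0 in either direction, with a median of -0.08, and the 12 markers of GABAergic interneurons gave 0, with a median of 0.05.

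**Figure D3:**
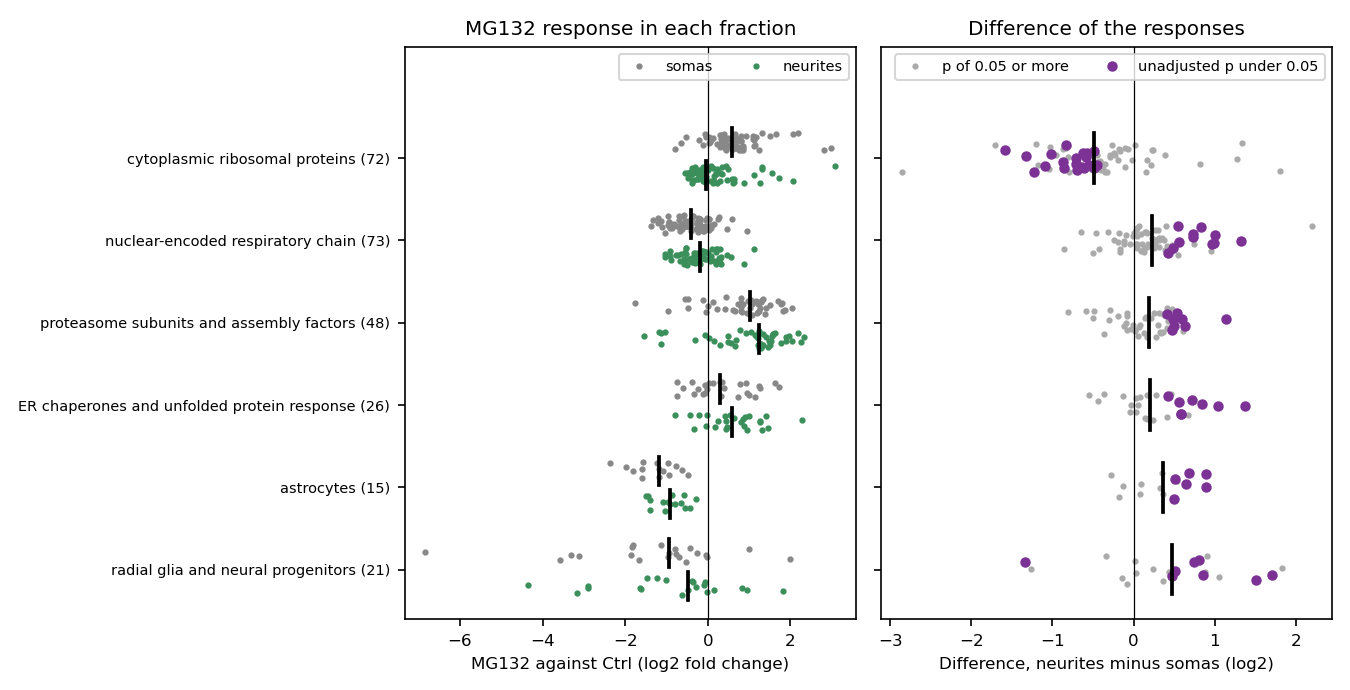
Left, log2 fold change of MG132 against Ctrl of each tested member of 6 lists in somas (grey) and neurites (green). Right, the difference of the 2 responses, with members at an unadjusted p under 0.05 in purple. Black bars are medians. The medians of the differences are -0.49 for ribosomal proteins and 0.19 to 0.47 for the other 5 lists.

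A second pattern among the genes called higher was a rise that was larger in neurites. *Ssb*, the La protein that binds the ends of new RNA polymerase III transcripts, measured 110.3, 116 and 115 CPM in Ctrl somas, 125, 115 and 156 in MG132 somas, 114, 137 and 111 in Ctrl neurites and 374, 336 and 357 in MG132 neurites. The neurites of the 2 treatments were far apart, and their somas overlapped. Somas did not pass (0.21 ± 0.16), neurites rose (1.56 ± 0.16), and the difference was 1.36 ± 0.20 (adjusted p = 0.00235). *Pnn*, the nuclear speckle protein pinin, measured 69.3, 62.4 and 91.3 CPM in Ctrl somas, 99.7, 91.6 and 85.0 in MG132 somas, 65.9, 70.0 and 82.9 in Ctrl neurites and 247.3, 217 and 214 in MG132 neurites. It too rose in neurites (1.63 ± 0.18) and did not pass in somas (0.31 ± 0.17), with a difference of 1.31 ± 0.20 (adjusted p = 0.00237).

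*Hnrnpa2b1* was the 1 gene called from the list of 40 SR and hnRNP splicing factors, which regulate splice site choice. Of these 40, 8 were higher and 2 lower at an unadjusted p under 0.05, against 5.44% and 6.26% of all genes. The median difference was 0.17, and 16 rose in somas and 21 in neurites, against 15.5% and 14.7% of all genes. *Hnrnpa2b1*, an hnRNP known to bind transport elements in dendritic mRNAs, measured 363, 349 and 349 CPM in Ctrl somas, 299, 287 and 313 in MG132 somas, 433, 495 and 432 in Ctrl neurites and 733, 629 and 633 in MG132 neurites, lower in every MG132 soma library than in any Ctrl soma library and higher in every MG132 neurites library than in any Ctrl neurites library. The change in somas was -0.24 ± 0.15 (adjusted p = 0.256), that in neurites 0.55 ± 0.15 (adjusted p = 0.0125), and the difference 0.79 ± 0.19 (adjusted p = 0.0401). The median of this list stayed above 0 under every scaling, at 0.02 on total counts, where 0 members passed, and 4 were higher without Ctrl replicate 1 and 2 without replicate 1 of both treatments. Some RNA-binding and splicing genes outside the list were called as well. Those named here were chosen after their values were seen and are examples, not a count. Called higher were *Prpf39*, a factor of the U1 snRNP, with a difference of 1.17 ± 0.23 (adjusted p = 0.0143), *Cwc27*, a spliceosomal isomerase, with 1.39 ± 0.28 (adjusted p = 0.0163), *Rbm39*, a U2AF-like splicing factor, with 0.80 ± 0.20 (adjusted p = 0.0474), and *Zranb2*, a zinc finger splicing protein, with 0.91 ± 0.22 (adjusted p = 0.0436). The examples called lower had RNA functions other than splicing. They were *Adarb1*, an adenosine deaminase that edits RNA, with -1.15 ± 0.25 (adjusted p = 0.0253), and *Ctif*, a translation factor of the cap-binding complex, with -1.51 ± 0.33 (adjusted p = 0.0243). The RNA helicase *Ddx3x*, also chosen after its values were seen, rose in both fractions, by 0.74 in somas and 1.71 in neurites on the log2 scale, with a difference of 0.97 ± 0.18 (adjusted p = 0.0103).

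*Dars*, the cytosolic aspartyl-tRNA synthetase, measured 68.0, 66.1 and 71.3 CPM in Ctrl somas, 31.5, 44.2 and 62.6 in MG132 somas, 55.3, 75.8 and 87.3 in Ctrl neurites and 110.4, 124 and 136 in MG132 neurites. The MG132 soma libraries were all below the Ctrl soma libraries, and the MG132 neurites libraries all above the Ctrl neurites libraries. Its difference was 1.39 ± 0.24 (adjusted p = 0.00377). It was the only called gene among 20 aminoacyl-tRNA synthetases, of which 16 rose in somas and 17 in neurites, with 2 higher and 1 lower at an unadjusted p under 0.05 and a median difference of 0.11, which was -0.05 on total counts.

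*Ezr* and *Rdx*, members of the ezrin, radixin and moesin family that links actin filaments to the plasma membrane, were both called higher. *Ezr* measured 191, 172 and 176 CPM in Ctrl somas, 196, 326 and 297 in MG132 somas, 237.1, 232 and 257 in Ctrl neurites and 682, 724 and 853 in MG132 neurites, with a log2 change of 0.60 ± 0.19 in somas and 1.64 ± 0.19 in neurites and a difference of 1.06 ± 0.20 (adjusted p = 0.0103). *Rdx* did not pass in somas (-0.08 ± 0.17) and rose in neurites (0.85 ± 0.18), with a difference of 0.94 ± 0.21 (adjusted p = 0.0244). Over the 43 actin and actin-binding genes tested, 6 were higher and 4 lower at an unadjusted p under 0.05, against 5.44% and 6.26% of all genes. The median was 0.07, which turned to -0.08 on total counts. *Actb*, the β-actin gene often used as a reference, fell in both fractions (-1.27 ± 0.19 in somas and -1.66 ± 0.19 in neurites), with a difference of -0.40 ± 0.20 that missed the threshold (adjusted p = 0.439). *Gadd45b*, a DNA damage and stress response gene, rose from 5.87, 7.76 and 8.83 CPM to 91.9, 73.0 and 156 in somas and from 1.06, 5.70 and 1.68 to 96.0, 106 and 141 in neurites, a difference of 1.54 ± 0.38 (adjusted p = 0.0471). Its Ctrl neurites values rest on 4 to 51 reads a library.

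The endoplasmic reticulum (ER) folds secreted and membrane proteins, and its chaperones are known targets of the unfolded protein response. Of 26 ER chaperones and unfolded protein response genes tested, 8 were higher and 0 lower at an unadjusted p under 0.05. Over all genes the shares were 5.44% and 6.26%. A positive difference was found for 20 of the 26, and the median was 0.20. Without the culture block 3 passed, without replicate 1 of both treatments 4 passed, and on total counts 0 passed, with a median of 0.04. *Canx* (calnexin) and *Calr* (calreticulin), lectin chaperones that fold newly made glycoproteins, were the members called. Some other members, chosen after their values were seen, had small differences. *Hspa5*, the gene of BiP, rose by 0.93 in somas and 0.99 in neurites, with a difference of 0.08 ± 0.19 (adjusted p = 0.932). *Xbp1* had a difference of 0.24 ± 0.25 (adjusted p = 0.811) and *Herpud1* of -0.13 ± 0.33 (adjusted p = 0.941). The ER stress element, the sequence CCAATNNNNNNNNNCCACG to which NF-Y and ATF6 are known to bind, was searched on both strands of the 300 bases from 250 before to 50 after the RefSeq start site. Promoters were at hand for 11007 of the genes tested, and 16 of them (0.145%) held the element, including 9 of the 23 ER list genes with a promoter. Among the called genes with a promoter, 2 of the 51 called higher, *Canx* and *Calr*, and 0 of the 55 called lower held it. No other of the 9 list genes with the element was called. The promoters of *Canx*, *Calr* and *Hsp90b1*, the list members of lowest p, are shown 5′ to 3′ on the minus strand of GRCm38, with matches in capitals.
Canx, chr11:50325624-50325923: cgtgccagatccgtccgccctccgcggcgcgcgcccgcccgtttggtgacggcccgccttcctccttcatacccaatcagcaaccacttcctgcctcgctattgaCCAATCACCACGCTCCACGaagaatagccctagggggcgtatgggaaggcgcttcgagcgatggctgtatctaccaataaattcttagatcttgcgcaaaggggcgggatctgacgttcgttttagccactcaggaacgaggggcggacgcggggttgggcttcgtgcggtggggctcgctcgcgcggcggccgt
Calr, chr8:84846882-84847181: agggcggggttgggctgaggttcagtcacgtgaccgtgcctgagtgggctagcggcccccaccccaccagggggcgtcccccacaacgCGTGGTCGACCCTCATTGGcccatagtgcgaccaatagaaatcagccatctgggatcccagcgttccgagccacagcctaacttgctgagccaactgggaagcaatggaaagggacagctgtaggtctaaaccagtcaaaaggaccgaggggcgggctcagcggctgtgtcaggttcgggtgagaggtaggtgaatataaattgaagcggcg
Hsp90b1, chr10:86705395-86705694: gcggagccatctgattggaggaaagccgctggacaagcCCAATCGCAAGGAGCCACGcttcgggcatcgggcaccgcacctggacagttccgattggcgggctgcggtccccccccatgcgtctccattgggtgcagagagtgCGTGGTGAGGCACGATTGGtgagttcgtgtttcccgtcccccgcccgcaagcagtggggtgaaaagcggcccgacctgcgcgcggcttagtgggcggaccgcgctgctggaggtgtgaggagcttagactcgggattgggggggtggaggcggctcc

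*Canx* carried the element as written, *Calr* carried it on the other strand, and *Hsp90b1* carried 1 match in each orientation. A match is a description of the sequence and not a measured binding site. *Canx* measured 632, 742 and 781 CPM in Ctrl somas, 521, 667 and 651 in MG132 somas, 923, 1028 and 1308 in Ctrl neurites and 1715, 2002 and 1944 in MG132 neurites. All MG132 neurites libraries were above all Ctrl neurites libraries, and the soma libraries overlapped. It did not pass in somas (-0.23 ± 0.19, adjusted p = 0.391) and rose in neurites (0.80 ± 0.19, adjusted p = 0.00542), and its difference was 1.04 ± 0.19 (adjusted p = 0.00735).

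*Calr* measured 265, 366 and 425 CPM in Ctrl somas, 219, 229.8 and 243.4 in MG132 somas, 326, 445 and 552 in Ctrl neurites and 398, 578 and 606 in MG132 neurites. The somas of the 2 treatments did not overlap, with MG132 the lower, and the neurites did overlap. Neither response passed (adjusted p = 0.0616 in somas and 0.429 in neurites), and the difference was 0.85 ± 0.19 (adjusted p = 0.0318). *Hsp90b1*, the ER paralog of HSP90, had log2 ratios of -0.08, -0.14 and 0.19 in Ctrl cultures and 0.66, 0.64 and 0.81 in MG132 cultures, and its difference of 0.72 ± 0.19 missed the threshold (adjusted p = 0.0689). *Dnajb11*, the ER co-chaperone of BiP, measured 61.1, 74.1 and 66.6 CPM in Ctrl somas, 59.5, 59.1 and 65.3 in MG132 somas, 68.3, 62.4 and 67.1 in Ctrl neurites and 126, 120.4 and 114 in MG132 neurites, near the same level in every group except MG132 neurites, and its difference was 0.999 ± 0.22 (adjusted p = 0.0243).

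**Figure D4:**
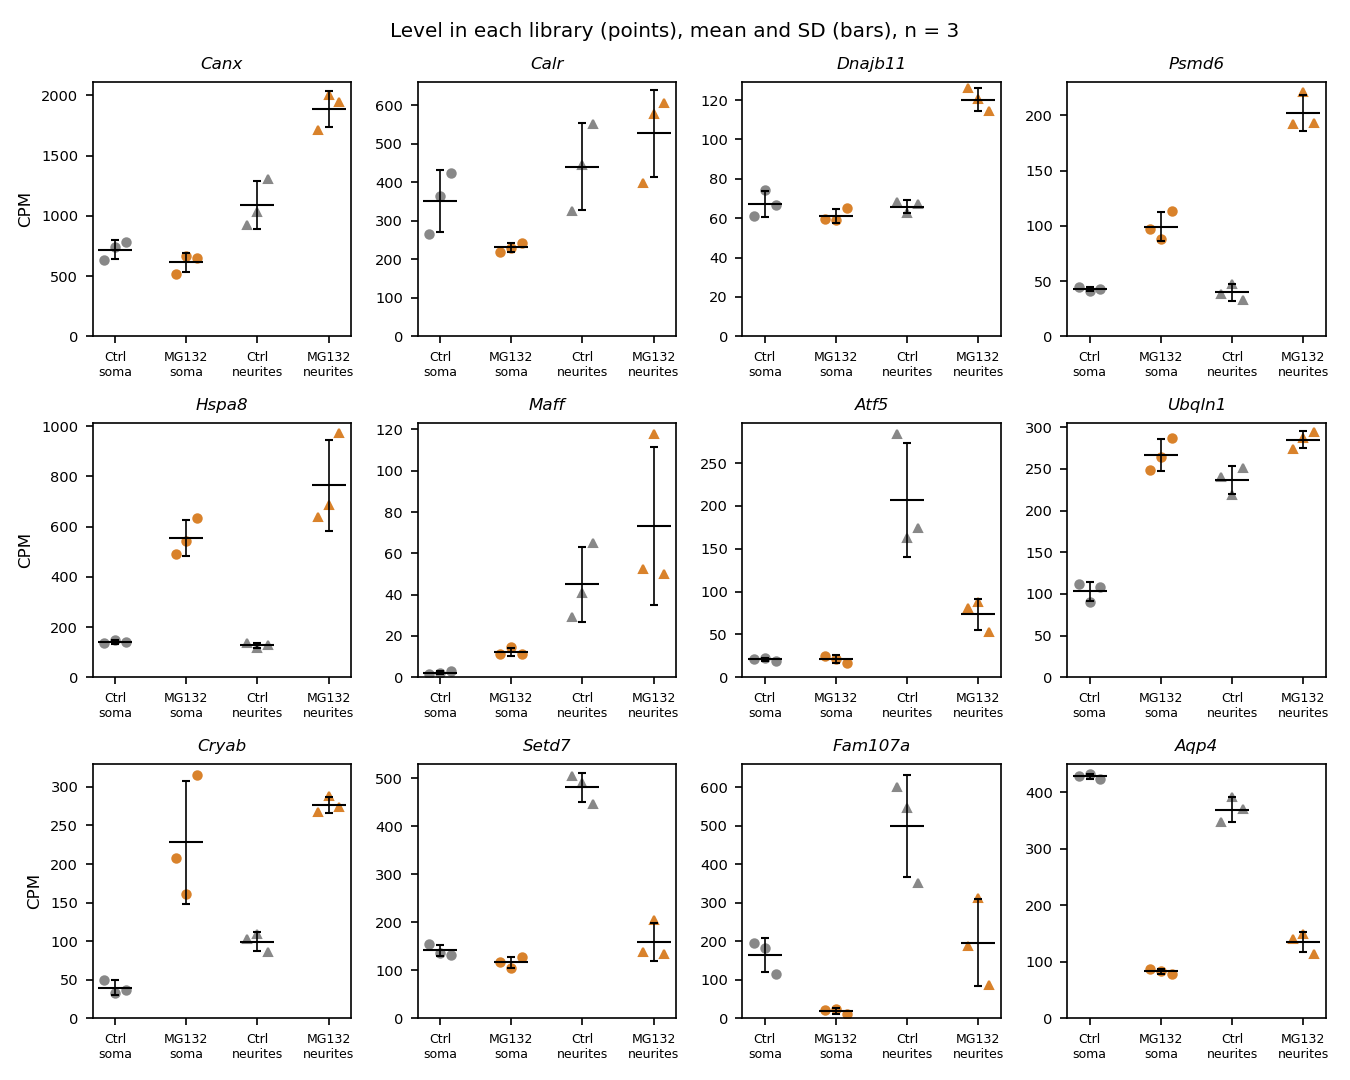
Level in CPM of 12 genes in each library (circles, somas; triangles, neurites; grey, Ctrl; orange, MG132), with the mean and SD of the 3 libraries of a group. Dnajb11 stands out in MG132 neurites alone, Ubqln1 is low in Ctrl somas alone, and Setd7 and Atf5 are high in Ctrl neurites and lower in MG132 neurites.

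Cytosolic heat shock genes, which refold damaged proteins, included 8 of the named genes below that rose in both fractions (*Hspa8*, *Hspa1a*, *Hspa1b*, *Hsph1*, *Hsp90aa1*, *Hsp90ab1*, *Dnajb1* and *Bag3*). None of these 8 was called for a difference, which with 0.952% of all genes called is no result about them. The small heat shock gene *Cryab*, described below, rose in both fractions too and was called lower. *Hspa8*, the constitutive HSP70, measured 135, 149 and 141 CPM in Ctrl somas, 490.3, 543 and 634 in MG132 somas, 136, 117 and 129.8 in Ctrl neurites and 637, 687 and 972 in MG132 neurites. It rose by 1.97 ± 0.19 in somas and 2.58 ± 0.19 in neurites on the log2 scale, and the difference of 0.60 ± 0.19 missed the threshold (unadjusted p = 0.00488, adjusted p = 0.156). All 3 MG132 ratios (0.38, 0.34 and 0.62) were above all 3 Ctrl ratios (0.01, -0.35 and -0.12). *Hspa1b*, a stress-inducible HSP70, rose from 2.07, 3.77 and 4.08 CPM to 910.1, 887 and 1444 in somas and from 0.529, 1.57 and 1.18 to 544, 587 and 1047 in neurites. Its Ctrl levels rest on few reads, most of all in neurites, so the sizes of both rises are imprecise. Its difference was 0.94 ± 0.33 (adjusted p = 0.197), and that of its neighbour and near-identical copy *Hspa1a* was 0.31 ± 0.48 (adjusted p = 0.892), which was -0.64 without Ctrl replicate 2. Reads of these copies can be exchanged, and *Hspa8* has pseudogenes, so their values are uncertain.

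*Hsph1*, the HSP110 nucleotide exchange factor, had a difference of 0.51 ± 0.19 (adjusted p = 0.256), *Hsp90aa1* of 0.22 ± 0.20 (0.76) and *Hsp90ab1* of 0.34 ± 0.20 (0.566). The co-chaperones *Dnajb1* (-0.50 ± 0.23, adjusted p = 0.398), *Bag3* (-0.46 ± 0.24, 0.465) and *Dnajb5* (-0.32 ± 0.29, 0.76) had negative values that did not pass. Over all genes the median standard error of the difference was 0.44 and the smallest absolute log2 difference called was 0.79. *Camk2a*, a dendritic kinase mRNA, had a difference of -0.09 ± 0.22 (adjusted p = 0.933), whose sign changed with the culture left out.

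By family, 3 of 14 HSP70 and HSP110 genes were higher and 1 lower at an unadjusted p under 0.05 (median 0.15). HSP90 genes and co-chaperones gave 2 and 0 of 23 (median 0.16), and chaperonin and prefoldin genes 3 and 1 of 16 (median 0.24). Over all genes the shares were 5.44% and 6.26%. On total counts the first 2 medians were -0.0043 and -0.0091. Of the 42 DNAJ co-chaperones, 6 were higher and 1 lower, with a median of 0.23. In somas 12 rose and in neurites 19, against 15.5% and 14.7% of all genes. *Dnaja2*, an HSP70 partner of the cytosol, rose by 0.92 in somas and 1.62 in neurites, a difference of 0.70 ± 0.19 (adjusted p = 0.082). *Cct6a*, a subunit of the chaperonin TRiC, had a difference of 0.65 ± 0.20 (adjusted p = 0.133).

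Small heat shock proteins hold unfolded proteins in a soluble state. *Cryab* (αB-crystallin) measured 50.1, 32.5 and 37.0 CPM in Ctrl somas, 208, 161 and 316 in MG132 somas, 103, 109 and 85.8 in Ctrl neurites and 268, 287.8 and 274 in MG132 neurites, higher with MG132 in both fractions without overlap. The rise was 2.52 ± 0.24 in somas against 1.48 ± 0.23 in neurites, a difference of -1.005 ± 0.25 (adjusted p = 0.0481). *Hspb8*, the small heat shock partner of the autophagy factor *Bag3*, measured 51.4, 62.5 and 63.8 CPM in Ctrl somas, 117, 138 and 158 in MG132 somas, 147, 139 and 178 in Ctrl neurites and 151, 213 and 205 in MG132 neurites. It rose in somas (1.21 ± 0.19) and did not pass in neurites (0.30 ± 0.18, adjusted p = 0.255), with a difference of -0.92 ± 0.20 (adjusted p = 0.0247). Over the 13 small HSP and BAG genes tested, 2 were higher and 2 lower at an unadjusted p under 0.05, with a median of -0.06.

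Subunits of the proteasome itself, the target of MG132, rose in both fractions, 35 of 48 in somas and 34 of 48 in neurites, with 0 falls. A higher difference at an unadjusted p under 0.05 was found for 8 members and a lower one for 0, against 5.44% and 6.26% of all genes. The median was 0.19. *Psmd6*, a lid subunit, was the member called. It measured 44.9, 40.7 and 42.8 CPM in Ctrl somas, 96.7, 88.0 and 113 in MG132 somas, 38.6, 47.8 and 33.0 in Ctrl neurites and 192, 221 and 193 in MG132 neurites, overlapping between the Ctrl fractions and higher in all MG132 neurites than in any MG132 soma library. It rose by 1.22 ± 0.17 in somas and by 2.34 ± 0.18 in neurites on the log2 scale, a difference of 1.14 ± 0.23 (adjusted p = 0.0154). *Psmd14*, the lid deubiquitinase, had a difference of 0.63 ± 0.20 (adjusted p = 0.152) and *Psma4*, a core subunit, of 0.60 ± 0.23 (adjusted p = 0.276). On total counts 0 members of the list passed, with a median of 0.04, without the block 2 passed, 3 passed without MG132 replicate 2, 4 without Ctrl replicate 1 and 8 to 12 without another culture, and without replicate 1 of both treatments 2 passed higher and 1 lower.

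Ubiquitin shuttle factors did not move together, with 3 higher and 5 lower of 19 tested, against 5.44% and 6.26% of all genes. Their median was 0.06, which was -0.09 on total counts. *Ubqln1* (ubiquilin 1), which carries ubiquitinated proteins to the proteasome, measured 112, 90.4 and 108 CPM in Ctrl somas, 249, 265 and 287 in MG132 somas, 240.5, 218 and 252 in Ctrl neurites and 274, 287 and 295 in MG132 neurites. Ctrl somas were apart from and below all other libraries. It rose in somas (1.37 ± 0.15) and did not pass in neurites (0.27 ± 0.15), and the difference was -1.10 ± 0.19 (adjusted p = 0.00377). *Ufd1*, a p97 cofactor in ER-associated degradation, had a difference of 0.77 ± 0.26 (adjusted p = 0.18), and *Zfand2a*, an arsenite-inducible proteasome regulator, of -0.79 ± 0.27 (adjusted p = 0.183).

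Of the small MAF and ATF families of stress transcription factors, *Maff*, *Mafk* and *Atf5* were called lower. *Maff*, a small MAF partner of NRF2 and NRF1, measured 1.66, 2.22 and 3.09 CPM in Ctrl somas, 11.1, 14.5 and 11.2 in MG132 somas, 29.1, 41.0 and 64.9 in Ctrl neurites and 52.5, 118 and 50.2 in MG132 neurites. Soma libraries of the 2 treatments did not overlap, those of neurites did, and neurites were the higher fraction in each culture. It rose in somas (2.41 ± 0.40) and did not pass in neurites (0.71 ± 0.35), with a difference of -1.78 ± 0.33 (adjusted p = 0.0078). Its paralog *Mafk* did the same (1.94 ± 0.33 and 0.46 ± 0.31), with a difference of -1.55 ± 0.31 (adjusted p = 0.0163). The Ctrl soma values of *Maff* rest on 20 to 28 reads a library.

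*Atf5*, a bZIP factor of the integrated and mitochondrial stress responses, measured 20.9, 22.6 and 19.0 CPM in Ctrl somas, 25.3, 21.4 and 16.2 in MG132 somas, 284, 162 and 175 in Ctrl neurites and 80.3, 87.7 and 53.3 in MG132 neurites. Its soma libraries overlapped between treatments, and all MG132 neurites libraries were below all Ctrl neurites libraries. It fell in neurites (-1.48 ± 0.25) and did not pass in somas (0.00 ± 0.25), with a difference of -1.47 ± 0.25 (adjusted p = 0.00352). *Cebpg*, a bZIP factor of the C/EBP family, was called lower as well. The gene rose in somas (0.72 ± 0.19) and did not pass in neurites (-0.41 ± 0.19), with a difference of -1.11 ± 0.23 (adjusted p = 0.0178). Of 27 ATF4 and CHOP genes tested, 22 rose in somas and 20 in neurites. At an unadjusted p under 0.05, 1 was higher and 6 lower, against 5.44% and 6.26% of all genes. The median difference was -0.07, or 0.04 with mitochondrial genes and the most counted gene left out of the scaling. The higher member was *Chac1*, a glutathione-degrading enzyme, with a difference of 1.92 ± 0.63 (adjusted p = 0.169) on 0 to 20 reads in the Ctrl libraries.

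*Fth1*, the ferritin heavy chain that stores iron, measured 1010, 950.2 and 1387 CPM in Ctrl somas, 1707, 2197 and 2623 in MG132 somas, 5857, 6437 and 11085 in Ctrl neurites and 5572, 8348 and 9323 in MG132 neurites, far higher in neurites than in somas. It rose in somas (0.96 ± 0.29, adjusted p = 0.0224) and did not pass in neurites (-0.01 ± 0.29), with a difference of -0.94 ± 0.21 (adjusted p = 0.0293). It belongs to 25 NRF2 antioxidant targets, of which 12 rose in somas and 8 in neurites. At an unadjusted p under 0.05, 1 of these targets was higher and 6 lower, against 5.44% and 6.26% of all genes, with a median of -0.02. *Hmox1* (heme oxygenase 1) rose in both, by 4.38 and 3.42, and its difference of -0.88 ± 0.23 missed the threshold (adjusted p = 0.0616). Among 28 immediate early genes, 0 were higher and 3 lower, with a median of -0.22, and the third after *Maff* and *Mafk* was *Atf3* (-0.60 ± 0.23, adjusted p = 0.264). *Lonp1*, the mitochondrial protease, chosen after its values were seen, rose in somas (1.52 ± 0.19) and did not pass in neurites (0.53 ± 0.19), with a difference of -0.99 ± 0.22 (adjusted p = 0.0308).

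*H2-Q4*, a class I histocompatibility gene, led the genes called lower by p. It measured 7.25, 13.6 and 12.02 CPM in Ctrl somas, 29.0, 41.0 and 47.8 in MG132 somas, 47.1, 59.6 and 71.0 in Ctrl neurites and 48.8, 79.8 and 77.6 in MG132 neurites. It rose in somas (1.85 ± 0.29) without overlap and did not pass in neurites (0.22 ± 0.27), with a difference of -1.65 ± 0.26 (adjusted p = 0.00237). Its reads can be shared with other class I genes, which makes the value uncertain. The 15 genes of the MHC class I list had 0 higher and 2 lower at an unadjusted p under 0.05 and a median of -0.48. *Naa50*, an N-terminal acetyltransferase, measured 85.9, 88.6 and 106 CPM in Ctrl somas, 206, 196 and 227 in MG132 somas, 409, 531 and 590.4 in Ctrl neurites and 522, 503 and 563 in MG132 neurites, with the treatments apart in somas and overlapping in neurites and a difference of -1.10 ± 0.19 (adjusted p = 0.00385). *Wwtr1* (TAZ) and *Yap1*, paired co-activators of the Hippo pathway, were chosen after their values were seen. *Wwtr1* rose in somas (0.93 ± 0.20) and did not pass in neurites (0.02 ± 0.20), with a difference of -0.94 ± 0.20 (adjusted p = 0.0234), while *Yap1* did not pass in somas (0.28 ± 0.26) and fell in neurites (-0.77 ± 0.25), with a difference of -1.01 ± 0.23 (adjusted p = 0.0298).

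**Figure D5:**
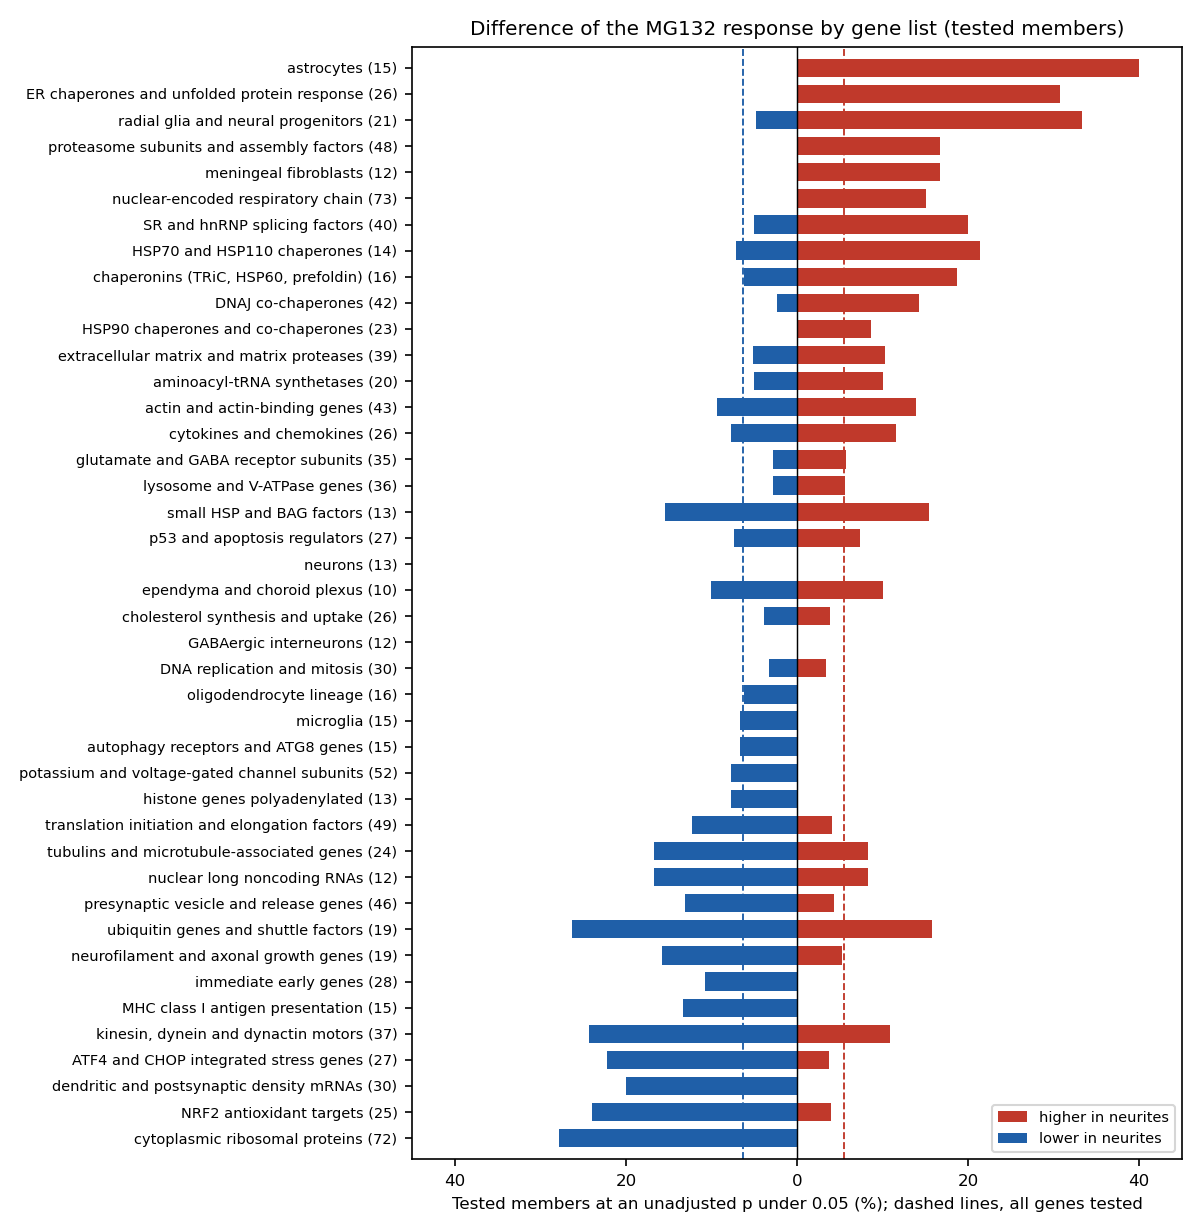
Share of the tested members of each list with at least 10 members tested that had a higher (red, to the right) or lower (blue, to the left) difference at an unadjusted p under 0.05, with the number tested in brackets. Dashed lines are the shares over all genes, 5.44% and 6.26%, and astrocytes, radial glia and ER genes reach furthest to the right, ribosomal proteins furthest to the left.

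The largest pattern among the genes called lower was a fall in neurites with no call in somas. *Setd7*, a lysine methyltransferase, measured 155, 136 and 133 CPM in Ctrl somas, 117, 105 and 128 in MG132 somas, 504, 491 and 447 in Ctrl neurites and 138, 205 and 135 in MG132 neurites. Ctrl neurites stood above all other libraries, and 2 of the 3 MG132 neurites libraries were within the soma range. Neurites fell (-1.59 ± 0.18), somas did not pass (-0.27 ± 0.18), and the difference was -1.35 ± 0.22 (adjusted p = 0.00292). *Ston2* (stonin 2), the endocytic adaptor for synaptotagmin, measured 45.4, 36.8 and 49.9 CPM in Ctrl somas, 42.1, 25.8 and 47.5 in MG132 somas, 202, 135 and 172 in Ctrl neurites and 61.4, 45.6 and 67.1 in MG132 neurites. Its neurites libraries were apart and its soma libraries overlapped, with a difference of -1.32 ± 0.22 (adjusted p = 0.00352). *Itpripl2* also fell in neurites without a call in somas. Its ratios were 1.87, 1.49 and 2.11 in Ctrl and 0.57, 0.24 and 0.30 in MG132 cultures, with a difference of -1.46 ± 0.27 (adjusted p = 0.00859).

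*Mapt*, which encodes the axonal microtubule protein tau, measured 113, 100.1 and 125 CPM in Ctrl somas, 117, 112 and 97.2 in MG132 somas, 185, 159 and 187 in Ctrl neurites and 89.2, 83.7 and 73.9 in MG132 neurites. The Ctrl cultures had more in neurites than in somas, with log2 ratios of 0.71, 0.66 and 0.58, and the MG132 cultures had less, with -0.39, -0.42 and -0.39. *Mapt* fell in neurites (-1.10 ± 0.16) and did not pass in somas (-0.05 ± 0.16), a difference of -1.06 ± 0.20 (adjusted p = 0.00859). *Ctnnb1* (β-catenin), of cell adhesion and Wnt signalling, did not pass in somas (0.23 ± 0.18) and fell in neurites (-0.74 ± 0.18), with a difference of -0.98 ± 0.20 (adjusted p = 0.0163). *Tns3*, a tensin of focal adhesions, fell in both (-0.86 ± 0.27 and -1.95 ± 0.27), with a difference of -1.12 ± 0.21 (adjusted p = 0.00859). *Ahnak*, a giant scaffold protein of the cell cortex, fell in both as well, from 158, 213 and 175 to 32.1, 40.8 and 30.6 CPM in somas and from 587, 483 and 828 to 32.9, 38.4 and 64.98 in neurites, with a difference of -1.41 ± 0.28 (adjusted p = 0.0149).

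Over all genes tested, 3 rose in 1 fraction and fell in the other, and these 3 were called for the difference. *Fez1*, a kinesin adaptor of axonal transport, measured 103, 85.9 and 80.1 CPM in Ctrl somas, 67.1, 44.6 and 70.9 in MG132 somas, 83.6, 82.8 and 71.1 in Ctrl neurites and 139, 109 and 119.8 in MG132 neurites. The treatments were apart in both fractions. It fell in somas (-0.55 ± 0.19, adjusted p = 0.043) and rose in neurites (0.63 ± 0.19, adjusted p = 0.025), with a difference of 1.20 ± 0.22 (adjusted p = 0.00665). *Polr2m*, a subunit of one form of RNA polymerase II, rose in somas (0.61 ± 0.17, adjusted p = 0.0133) and fell in neurites (-0.46 ± 0.16, adjusted p = 0.0485). It measured 53.9, 48.5 and 49.0 CPM in Ctrl somas, 75.4, 76.3 and 79.8 in MG132 somas, 272, 201 and 278 in Ctrl neurites and 163, 206 and 174 in MG132 neurites, where the neurites overlapped by a narrow margin, and its difference was -1.08 ± 0.21 (adjusted p = 0.0103). *Abhd2*, a lipid hydrolase chosen after its values were seen, rose in somas (0.57 ± 0.17, adjusted p = 0.0193) and fell in neurites (-0.49 ± 0.17, adjusted p = 0.0391), with a difference of -1.05 ± 0.21 (adjusted p = 0.0163).

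Among motor proteins, *Kif5b* and *Kif1c* were called lower and *Kif21a* higher. *Kif5b*, the heavy chain of kinesin-1, measured 279, 211 and 276 CPM in Ctrl somas, 370.2, 326 and 431 in MG132 somas, 1322, 1159 and 1964 in Ctrl neurites and 1066, 929 and 1195 in MG132 neurites. In somas the MG132 libraries were all above the Ctrl libraries, and in neurites they ranged lower with overlap. Neither response passed, and the difference was -1.01 ± 0.20 (adjusted p = 0.014). *Kif1c*, a long-range kinesin, fell in neurites (-0.81 ± 0.19) and did not pass in somas (0.12 ± 0.19), with a difference of -0.91 ± 0.20 (adjusted p = 0.0253). *Kif21a*, a kinesin that regulates microtubule growth, rose in both (1.19 ± 0.26 and 2.19 ± 0.26) and was called higher, with 1.04 ± 0.21 (adjusted p = 0.0143). Over 37 kinesin, dynein and dynactin genes, 4 were higher and 9 lower at an unadjusted p under 0.05, against 5.44% and 6.26% of all genes, with a median of -0.22. The number lower was 4 without the block, 4 without MG132 replicate 1, 4 without Ctrl replicate 3, 4 without replicate 1 of both treatments and 2 on total counts, where 0 were higher.

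Among 24 tubulins and microtubule-associated genes, 2 were higher and 4 lower, with a median of 0.01, which lay between -0.14 and 0.11 over the scalings. *Map1b*, a microtubule protein of growing axons, rose by 0.52 in somas and 1.21 in neurites, a difference of 0.69 ± 0.20 (adjusted p = 0.103). Of 19 neurofilament and axonal growth genes, 1 was higher and 3 lower, with a median of -0.04. The higher one was *Nefm*, the medium neurofilament subunit, which measured 149.6, 84.8 and 125 CPM in Ctrl somas, 239.6, 83.1 and 138 in MG132 somas, 109, 67.7 and 53.3 in Ctrl neurites and 242.5, 157 and 167 in MG132 neurites. It rose in neurites (1.30 ± 0.35, adjusted p = 0.013) and did not pass in somas (0.36 ± 0.34, adjusted p = 0.476), with a difference of 1.06 ± 0.25 (adjusted p = 0.0397).

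The mRNAs of cytoplasmic ribosomal proteins, which are translated in bulk under growth control, had a lower difference as a list. None of them was called, where 0.952% of all genes were. Their median log2 neurites to soma ratio was 1.72 in Ctrl cultures. Of 72 tested, 0 were higher and 20 lower at an unadjusted p under 0.05, against 5.44% and 6.26% of all genes, 11 had a positive difference, and the median was -0.49 against -0.01. In somas 13 rose and 0 fell, with a median log2 change of 0.59, and in neurites 1 rose and 0 fell, with a median of -0.05. *Rpl8* measured 73.1, 66.6 and 64.98 CPM in Ctrl somas, 116, 117 and 110.0 in MG132 somas, 200.3, 164 and 263 in Ctrl neurites and 153, 224 and 201 in MG132 neurites, with somas of the treatments apart and neurites overlapping. Its difference was -0.85 ± 0.22 (unadjusted p = 8.41e-04, adjusted p = 0.0627). *Rpl26* had a difference of -1.10 ± 0.29 (adjusted p = 0.0738) and *Rps3* of -0.71 ± 0.20 (adjusted p = 0.0976). The median lay between -0.64 and -0.39 over the scalings, and the number lower was 12 without the block, 11 without replicate 1 of both treatments and 5 on total counts. With 1 culture left out it was 6 without Ctrl replicate 3, 8 without MG132 replicate 1, 9 without MG132 replicate 3 and 17 to 21 in the other fits. Ribosomal protein genes have many processed pseudogenes that can take or lend reads, so single values and the count and median of the list are uncertain. Some members were near the floor, such as *Rpl23a*, *Rps16* and *Rps27* at means of 0.72, 0.96 and 0.98 CPM, named after their values were seen. Of 49 translation initiation and elongation factors, 2 were higher and 6 lower, with a median of -0.13. The one with the lowest p was *Eif1ax*, an initiation factor that acts in start codon scanning, with a difference of 0.90 ± 0.22 just above the threshold (adjusted p = 0.0504).

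Genes of the nuclear-encoded respiratory chain had the opposite sign. Of 73 tested, 11 were higher and 0 lower at an unadjusted p under 0.05, against 5.44% and 6.26% of all genes. A positive difference was found for 57 of the 73, and the median was 0.23. In somas 15 fell, with a median of -0.41, and in neurites 7 fell, with a median of -0.19. *Uqcrb*, of complex III, measured 16.02, 15.3 and 16.7 CPM in Ctrl somas, 7.95, 9.91 and 12.5 in MG132 somas, 12.4, 24.9 and 32.6 in Ctrl neurites and 31.9, 33.4 and 38.7 in MG132 neurites, with a difference of 1.32 ± 0.37 (adjusted p = 0.0922). *Ndufs1*, the largest subunit of complex I, had 0.73 ± 0.22 (adjusted p = 0.118) and *Ndufb10*, another complex I subunit, 0.83 ± 0.27 (adjusted p = 0.153). On total counts 0 members passed, with a median of 0.07, without the block 6 passed and without replicate 1 of both treatments 4. With 1 culture left out, 3 passed without MG132 replicate 2, 5 without Ctrl replicate 1, 18 without MG132 replicate 3 and 9 to 13 in the other fits. The 8 mitochondrially encoded mRNAs tested gave 0 in either direction, with a median of 0.17. *Mfn2*, a mitochondrial fusion and tethering protein chosen after its values were seen, passed in neither response and had a difference of -0.87 ± 0.21 (adjusted p = 0.0394).

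Synaptic lists held no called gene. Over all genes only 0.952% were called, so the lack of calls is no result about these lists. Of 30 dendritic and postsynaptic density mRNAs, 0 were higher and 6 lower at an unadjusted p under 0.05, with a median of -0.25. Without the culture block 0 were higher and 1 lower, and by limma with the culture as a random block 1 was higher and 3 lower. *Pura*, a dendritic RNA-binding protein, had a difference of -1.22 ± 0.34 (adjusted p = 0.0821), the scaffold *Homer1* -0.69 ± 0.24 (adjusted p = 0.207) and *Dlgap3*, a PSD95-binding scaffold, -0.92 ± 0.33 (adjusted p = 0.226). Presynaptic genes gave 2 higher and 6 lower of 46 (median -0.14), potassium and voltage-gated channel subunits 0 and 4 of 52 (median -0.20), and glutamate and GABA receptor subunits 2 and 1 of 35 (median 0.19). Presynaptic genes gave 1 higher and 0 lower without the block and 2 and 0 by the same limma fit. Channel subunits gave 0 and 2 without the block and 0 and 5 by limma. The remaining lists are given as the members higher and lower at an unadjusted p under 0.05, against 5.44% and 6.26% of all genes. They were lysosome and V-ATPase genes (2 and 1 of 36), autophagy receptors (0 and 1 of 15), cholesterol synthesis (1 and 1 of 26), DNA replication (1 and 1 of 30), p53 and apoptosis regulators (2 and 2 of 27) and extracellular matrix genes (4 and 2 of 39). Cytokines gave 3 and 2 of 26, histone genes 0 and 1 of 13, metallothionein and metal response genes 1 and 2 of 7, and nuclear long noncoding RNAs 1 and 2 of 12.

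The 135 called genes went beyond those described. The others that fell in somas without a call in neurites were *Cetn3*, *Lxn*, *Scg3*, *Ptn*, *F3*, *Fxyd1*, *Scrg1*, *Acadm*, *Chl1*, *Cldn10*, *Gpc4* and *Ywhae*, and those that fell in both with a higher difference were *Apln*, *Igfbp4*, *Prex2* and *Cybrd1*. Those that rose in both with a higher difference were *Metap2*, *Rnf20*, *Lrrfip2*, *Zc3h18*, *Ccar1*, *Rbm33*, *Ptges3-ps*, *Zc3h15* and *Pkn2*. Those that rose in neurites without a call in somas were *Apobr*, *Septin7*, *Stk3*, *Cwf19l2*, *Ik* and *Ppme1*, besides *Smc1a* and *Luc7l3* with no call in either response. Among the genes called lower, the others that fell in neurites without a call in somas were *Ccnd2*, *Arl5a*, *Mllt6*, *Dtna*, *Agap1*, *Hivep1*, *Norad*, *Szrd1*, *Rragd*, *Cd33*, *Epas1*, *Satb1*, *Rab6b*, *Dbndd2*, *Thap12*, *Crtc1*, *Emc8*, *Prr12*, *Slfn5* and *Coro1c*. The others that rose in somas without a call in neurites were *Akap2*, *Lin7c*, *Gm11478*, *Aagab*, *Ddr2*, *Ankrd50*, *Zmat3*, *Ilrun*, *Ormdl3*, *E2f3* and *Fam219aos*. Those that fell in both with a lower difference were *Dusp3*, *Fam120c*, *Ppm1k*, *Kbtbd11*, *Mgat3* and *Heg1*, those with no call in either were *Zfp652*, *Wsb2*, *Cflar*, *Tmem170b* and *Fam102b*, and the unnamed gene *Entrez319269* rose in both. The widest differences of the 135, chosen after their values were seen, belonged to the myeloid receptor gene *Cd33*, which is in none of the marker lists, on the lower side, at -3.35 ± 0.76 (adjusted p = 0.0313) and a mean of only 6.30 CPM, and to *Ucma* on the higher side, at 2.51 ± 0.41 (adjusted p = 0.00292). The absolute log2 difference reached down to 0.79 among the genes called higher and 0.87 among those called lower.

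Transcript length and GC content were not used by the test and are given as a description. The longest annotated transcript of the genes called lower had a median length of 5379 bases (68 of 71 matched in GENCODE M21), against 3238 bases over all tested genes and 2772 bases for the genes called higher (61 of 64 matched). The median GC content was 50.5% for the genes called lower, 46.9% for those called higher and 49.9% over all genes. Heat shock elements, searched as GAANNTTCNNGAA in the same 300-base windows, were found for 63 of the 11007 genes with a promoter (0.572%), for 1 of the 51 called higher, *Hnrnpa2b1*, and for 0 of the 55 called lower.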

How the data were processed

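Somas and neurites of primary hippocampal cultures were sequenced as polyA RNA, 3 libraries in each of 4 groups. The authors trimmed the reads with Trimmomatic 0.38.0, aligned them to mm10 (GRCm38) with STAR and deposited raw counts per Entrez gene from featureCounts 2.0.1 at default settings, and the submitters' processing notes also name DESeq2 2.11.40.7, whose results were not used here. By default featureCounts ignores strand, so reads of a gene and of an overlapping antisense gene cannot be told apart. The 12 files list 27179 genes, of which 93.0% had a symbol in the RefSeq gene table. No library pair was identical.

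Counts were analysed with edgeR 4.0.16 in R 4.3.3 (TMM scaling, filterByExpr by group, 14185 genes tested, quasi-likelihood F-test, Benjamini-Hochberg adjustment over all tested genes, call at an adjusted p under 0.05). The difference of responses was fitted with 6 culture blocks and a neurites against soma coefficient for each treatment, and the MG132 responses in each fraction with 4 group means. Each SE is the absolute log2 value divided by the square root of F. Ratios of single cultures are log2 CPM differences with a prior count of 2. The titles pair fractions by treatment and replicate number only and do not say that a pair came from the same culture. Deviations from the group means correlated at 0.165 to 0.243 over genes in each of the 6 same-numbered pairs. Such correlations cannot tell a shared culture from a shared day or batch, so the pairing by culture was not tested. Totals of 4247610 to 22166347 counts set the precision, and intervals cover the spread between libraries.

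Named were up to 15 called genes a direction by p with a mean of at least 1 CPM, 12 heat shock and reference genes and, for each list the text treats in detail, up to 3 members of lowest p, and other names are marked as chosen after their values were seen. A gene within this rule is not reported here. The 36 function and 9 marker lists and the members were chosen with earlier results of these data known. Lists were described by counts and medians, without a set test. Alternatives were other block designs, limma 3.58.1 voom, DESeq2 1.42.0, other scalings and filters, a threshold of 0.01, each culture or library left out, and, chosen after seeing the data, replicate 1 left out of both treatments. Transcript lengths came from GENCODE and promoters from RefSeq tables of GRCm38. The scripts were tested on simulated data, and figures were drawn with matplotlib 3.10.9 in Python 3.11.15.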

Additional observations from a re-analysis of the deposited data

Results flagged for a closer look

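A difference between the responses of the 2 fractions, tested directly, was called for 64 genes on the higher and 71 on the lower side, which are the subject of the report. Among them, 3 genes were called in opposite directions in somas and in neurites, each with a difference past the threshold by edgeR's quasi-likelihood test: *Fez1*, which fell in somas and rose in neurites (difference 1.20 ± 0.22 (adjusted p = 0.00665)), *Polr2m*, which rose in somas and fell in neurites (-1.08 ± 0.21 (adjusted p = 0.0103)), and *Abhd2*, which did the same (-1.05 ± 0.21 (adjusted p = 0.0163)). The culture ratios of the 2 treatments did not overlap for these 3 genes, as for all 135 called and 17.8% of the genes tested. No group had 4 or more libraries, so no library was tested as an outlier.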

How the results depend on the processing

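Of the 135 called differences, all kept their direction in every alternative in which the gene was tested. The alternatives used the same counts, and the culture ratios of these genes did not overlap. Leaving out a culture could therefore hardly reverse a direction, and the kept directions are no separate support. The number called moved most. It depended on the replicate block, the scaling and the cultures. Without a replicate block 0 were called on either side (474 higher and 526 lower at an unadjusted p under 0.05 by edgeR). With the replicate number alone as the block 43 were called lower, and the number higher stayed within 1.5 times of 64. Higher and lower calls were 20 and 16 with limma voom and the culture as a random block, 219 and 165 with DESeq2 and the same culture blocks, 0 and 0 on total counts, 111 and 40 without mitochondrial genes and the gene with most counts, and 16 and 11 at an adjusted p under 0.01. With no filter on low counts 261 were higher, and with at least 10 counts in every library 125 were lower. Leaving out 1 culture gave 24 (without Ctrl replicate 1) to 146 (without MG132 replicate 3) higher and 7 (without MG132 replicate 1) to 94 lower, with 28 higher without MG132 replicate 1, 113 higher and 17 lower without Ctrl replicate 3 and 18 lower without Ctrl replicate 1. Without replicate 1 in both treatments 0 and 0 were called (441 and 491 at an unadjusted p under 0.05). The cause of these changes was not tested, except that leaving out cultures leaves fewer libraries.

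The neurites to soma ratio in Ctrl cultures had 331 higher and 2917 lower genes on total counts, 1253 to 2071 and 863 to 1725 with 1 culture left out (lowest without Ctrl replicate 3 and without Ctrl replicate 1), and 823 lower without replicate 1 in both treatments. In MG132 cultures the ratio had 257 higher and 4488 lower on total counts, 1682 to 2297 and 904 to 1675 with 1 culture left out (904 without MG132 replicate 1), and 895 lower without replicate 1 in both treatments. The MG132 response had 1071 higher and 1039 lower genes in somas and 937 higher in neurites on total counts. Leaving out 1 library gave 1650 to 2339 higher and 1117 to 1776 lower in somas (1117 without Ctrl soma replicate 1), and 1705 to 2393 higher and 1025 to 1871 lower in neurites (1025 without MG132 neurites replicate 3).

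At an unadjusted p under 0.05, ribosomal proteins lower numbered 12 without a replicate block, 5 on total counts, 12 without mitochondrial genes and the top gene, 11 with no filter, 6 to 21 with 1 culture left out and 11 without replicate 1 in both treatments. Respiratory chain genes higher numbered 6 without the block, 0 on total counts, 3 to 18 with 1 culture left out and 4 without replicate 1. Proteasome genes higher numbered 2 without the block, 0 on total counts, 13 with no filter, 3 to 12 with 1 culture left out and 2 without replicate 1. ER genes higher numbered 3 without the block, 5 with voom, 0 on total counts, 6 to 11 with 1 culture left out and 4 without replicate 1. Astrocyte markers higher numbered 1, 0, 5 to 8 and 1, and radial glia markers 2, 2, 6 to 7 and 4, without the block, on total counts, with 1 culture left out and without replicate 1. The difference of *Hspa1a* turned to -0.64 without Ctrl replicate 2, against 0.27 to 0.84 with another culture left out. That of *Camk2a* turned to 0.013 without mitochondrial genes and the top gene, 0.030 with no filter, 0.077 without replicate 1 in both treatments and -0.27 to 0.057 with 1 culture left out (0.053, 0.035, 0.047 and 0.057 in the 4 positive fits). Of the other 1586 values of single named genes under alternatives, 1162 kept their side of the threshold, 360 lost it and 64 gained it, all in the same direction. With 3 cultures a treatment and a median standard error of 0.44, no difference under 0.79 on the log2 scale was called.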
